A study of Mus musculus with 2 samples.

Results

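Of 16453 filtered droplets from newborn mouse back skin, 971 (524 PADI4 WT cells and 447 from the library labelled PADI4 cKO) were selected for the messages of Pparg, Aldh3a1 and Acsbg1, genes of the sebaceous lineage, and for few or none of Cidea, a gene of the mature sebocyte. They were chosen by measured values: a droplet had to hold at least 4 unique molecular identifiers (UMIs, each marking 1 captured mRNA molecule) of Pparg, Aldh3a1 and Acsbg1 in all, fewer than 2 UMIs of Cidea, and fewer than 50 UMIs of Krt1 and Krt10 per 10000. The selected cells were 6.05% (95% interval 5.56 to 6.57) of the PADI4 WT droplets and 5.74% (5.23 to 6.28) of those labelled PADI4 cKO. Their level of these 6 genes is therefore set by the choice and is given below as a description only. The text calls them Pparg/Aldh3a1 cells.

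The cells came from P1 back skin, where epithelial cells marked by tdTomato under K14-Cre were sorted after the epidermis had been peeled off, and their RNA was captured in droplets and read from the 3′ end. PADI4 WT stands for mice labelled WT, and PADI4 cKO for K14-Cre; Padi4 fl/fl mice, in which Cre removes the floxed Padi4 gene in keratinocytes of epidermis and follicle. The protocol text names the Padi4 fl/fl genotype for both libraries, so the groups rest on the genotype labels. There was 1 library per genotype, both given as batch 1, and the labels state neither how many mice a library holds nor their sex. Differences between the 2 libraries thus have no replicate check, no test was possible, and every interval below is an exact 95% interval that covers counting error only.

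Sebaceous glands bud from the upper hair follicle around birth. Their basal precursors divide, take up and make lipid, and as mature sebocytes fill with droplets of wax esters, triglycerides and cholesterol esters before they burst into the hair canal. Pparg encodes PPARγ, the nuclear receptor that drives lipid storage and is needed for sebocyte differentiation, Aldh3a1 an aldehyde dehydrogenase that clears aldehydes formed from oxidised lipids, and Acsbg1 an enzyme that activates long fatty acids by joining them to coenzyme A. Cidea encodes a protein of lipid droplets that mature sebocytes carry, and Krt1 and Krt10 are the keratins of the suprabasal epidermis.

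The PADI4 WT library held 143938990 UMIs and the library labelled PADI4 cKO 143945294, with medians of 14109 and 15792 UMIs in the 8661 and 7792 droplets that passed the filters. Levels are given in CPM, the UMIs of a gene per 1000000 UMIs summed over the cells of a group. Of the barcodes, 17 occurred in both filtered sets. RNA floating free of cells could account for up to 5.57% of UMIs in the Pparg/Aldh3a1 cells of PADI4 WT and up to 1.48% in PADI4 cKO, and Pparg stood in empty droplets at 22.5 and 32.0 CPM. Padi4 did not set the libraries apart: it had 3 UMIs in the Pparg/Aldh3a1 cells of each, and 110 and 92 UMIs in the other droplets, so the library labelled PADI4 cKO is called by its label. Whether the 3′ counts cover the deleted part of Padi4 is not stated in the sources used here. The libraries differed in the sex of their cells. Cells with Xist UMIs and no UMI of a Y-linked gene were 18.7% of the Pparg/Aldh3a1 cells (98 cells) in PADI4 WT and 100% (447 cells) in PADI4 cKO, against 27.1% and 99.5% of the other droplets, so that sex cannot be told apart from genotype outside that subset, nor genotype from library in any.

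Pparg lies on mouse chromosome 6 (GRCm38, chr6:115360951-115490399, plus strand), Aldh3a1 on chromosome 11 (chr11:61207537-61218421, plus strand) and Acsbg1 on chromosome 9 (chr9:54604877-54661870, minus strand). The RefSeq table for GRCm38.p6 gives 3 starts for Pparg, the gene that carried most of the UMIs of the choice. The 300 bases around each are shown because a 3′ count sums the transcripts of all of them and does not say which was used. Capitals mark AGGTCA, the motif that PPARγ and related receptors can bind, and GCGTG, the core of the element bound by the xenobiotic receptor Ahr, each searched on both strands, so that GCGTG on the minus strand reads CACGC. The windows are, in order, chr6:115360894-115361193, chr6:115362099-115362398 and chr6:115421816-115422115, all on the plus strand:
Pparg start 1: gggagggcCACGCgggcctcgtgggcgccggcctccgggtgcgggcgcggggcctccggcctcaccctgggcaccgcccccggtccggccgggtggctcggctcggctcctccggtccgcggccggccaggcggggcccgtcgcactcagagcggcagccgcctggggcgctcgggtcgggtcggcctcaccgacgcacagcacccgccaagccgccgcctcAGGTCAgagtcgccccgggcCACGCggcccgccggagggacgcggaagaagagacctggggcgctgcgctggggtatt
Pparg start 2: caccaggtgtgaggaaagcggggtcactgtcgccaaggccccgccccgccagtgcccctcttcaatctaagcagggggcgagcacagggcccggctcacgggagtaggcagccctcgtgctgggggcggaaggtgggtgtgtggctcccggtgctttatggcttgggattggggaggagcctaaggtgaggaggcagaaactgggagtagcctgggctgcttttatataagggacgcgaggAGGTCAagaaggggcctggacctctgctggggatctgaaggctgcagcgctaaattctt
Pparg start 3: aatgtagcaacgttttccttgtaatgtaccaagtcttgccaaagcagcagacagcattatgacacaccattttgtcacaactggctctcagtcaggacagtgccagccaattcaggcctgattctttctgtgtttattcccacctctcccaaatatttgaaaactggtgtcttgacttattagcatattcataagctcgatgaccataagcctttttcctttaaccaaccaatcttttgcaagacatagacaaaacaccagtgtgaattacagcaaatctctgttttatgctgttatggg
The window of start 1 held 1 AGGTCA and 2 GCGTG, that of start 2 held 1 AGGTCA, and that of start 3 neither. Of all 32851 promoter windows of this length, 16.3% held AGGTCA and 32.4% held GCGTG, so such matches are common, and they are letters in a window and not shown sites. AGGTCANAGGTCA, the spaced repeat of the PPAR element, was in 13 of the 32851 windows and in none of the 3 for Pparg.

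The summed count of Pparg, Aldh3a1 and Acsbg1 had a median of 10 UMIs per cell in PADI4 WT and 11 in PADI4 cKO, and reached 114 and 104. Pparg alone would have admitted 356 of the 524 cells and 342 of the 447, Acsbg1 alone 197 and 148, and Aldh3a1 alone 119 and 94. All 3 messages were found in the same cell in 207 cells (39.5%) and 151 cells (33.8%). As levels in CPM, Pparg stood at 521 and 621 in PADI4 WT and PADI4 cKO against 20.5 and 29.5 in the other droplets, Aldh3a1 at 140 and 134 against 2.71 and 3.69, and Acsbg1 at 223 and 198 against 12.3 and 12.7. Of the droplets with a sum of 4 or more, 108 in PADI4 WT and 146 in PADI4 cKO were left out for their Cidea, and the limit on Krt1 and Krt10 left out 1 and 0 more. A Cidea UMI was found in 83 and 81 of the selected cells, so the boundary to the Cidea cells is a cut through a range. Just inside the choice, 70 and 39 cells had a sum of 4, and 101 and 85 droplets had a sum of 3.

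The 3 genes could be read independently by leaving each out of the choice in turn. Among the 302 and 230 cells chosen on Aldh3a1 and Acsbg1 alone, Pparg stood at 508 and 613 CPM against 32.8 and 43.2 CPM elsewhere, a log2 ratio of 3.96 (3.88 to 4.03) in PADI4 WT and 3.83 (3.76 to 3.90) in PADI4 cKO, and was found in 80.1% and 83.0% of them against 6.09% and 7.01% of the rest. Aldh3a1, in the 471 and 405 cells chosen on the other genes, had a log2 ratio of 5.02 (4.87 to 5.18) and 4.41 (4.26 to 4.57), and was found in 51.0% and 45.2% of cells. Acsbg1, in 430 and 396 such cells, had log2 ratios of 3.87 (3.77 to 3.97) and 3.79 (3.68 to 3.89) and was found in 74.9% and 72.0%. The 3 messages thus occurred in the same cells more often than elsewhere, with Aldh3a1 in the smallest share.

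To compare cells of unequal depth, each droplet was thinned to 2000 UMIs. Pparg was then found in 47.8% (39.8 to 55.9) of the PADI4 WT droplets with an Aldh3a1 UMI and in 4.07% (3.66 to 4.51) of those without, and in PADI4 cKO in 48.4% and 4.99%. In the reverse direction, Aldh3a1 was found in 18.0% and 16.4% of droplets with Pparg and in 1.01% and 1.09% of those without. Cidea, which the choice limits, was found in 15.9% and 17.5% of droplets with Pparg but in 8.18% and 7.74% of those with Aldh3a1, with overlapping intervals in PADI4 WT (12.5 to 19.7 and 4.43 to 13.6) and separate ones in PADI4 cKO (14.2 to 21.4 and 4.06 to 13.1).

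Lpl and Scube2 mark these cells in the working definition but were not used to choose them. Lpl, the lipase that frees fatty acids from circulating lipoproteins, had 916 UMIs in PADI4 WT and 771 in PADI4 cKO, or 115 and 113 CPM against 7.17 and 5.54 CPM in the other droplets. Its log2 ratio was 4.01 (3.88 to 4.14) and 4.35 (4.20 to 4.50), and it was found in 63.7% and 64.4% of the Pparg/Aldh3a1 cells against 6.07% and 5.41% of the others. Scube2, which encodes a secreted protein that releases hedgehog ligands from the cells that make them, stood at 117 and 143 CPM against 7.78 and 10.1 CPM, in 46.4% and 55.9% of cells against 5.67% and 6.64%. The cells and the other droplets were far apart for both genes in both libraries. The working definition was made with earlier results of these data known, so this is a description and no check of the name. Beside droplets with at least 2 Cidea UMIs, set out below, Lpl differed by log2 0.09 and 0.52 and Scube2 by 1.50 and 0.18.

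Both genes were higher at higher summed counts, but not at every step. Lpl stood at 3.67 and 2.41 CPM in droplets with none of the 3 rule genes, at 60.2 and 55.8 CPM at a sum of 3, at 83.1 and 94.8 CPM at a sum of 4, at 138 and 130 CPM at sums of 10 to 19, and at 108 and 116 CPM at 20 and more. Scube2 stood at 82.6 and 74.9 CPM at a sum of 3, at 82.2 and 73.5 CPM at 4, and at 165 and 154 CPM at 20 and more. Prlr, the prolactin receptor, stood at 13.1 and 11.6 CPM with no rule gene and at 627 and 498 CPM at sums of 20 and more. Lrig1, a marker of stem cells of the upper follicle, was already at 860 and 878 CPM at a sum of 3 and at 876 and 942 CPM at 20 and more. The levels just outside the choice were thus between those of the droplets without rule genes and those deep inside it, and for Lrig1 they were as high as inside. Deeper cells are more likely to pass a limit in UMIs. The median depth was 14271 and 16123 UMIs at a sum of 0, 11518 and 11929 at 3, and 15874 and 15799 at 20 and more. Over all Pparg/Aldh3a1 cells it was 13072.5 and 12890 UMIs, against 14176 and 15938 in the other droplets. As a group the chosen cells were thus not the deeper ones.

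**Figure D1:**
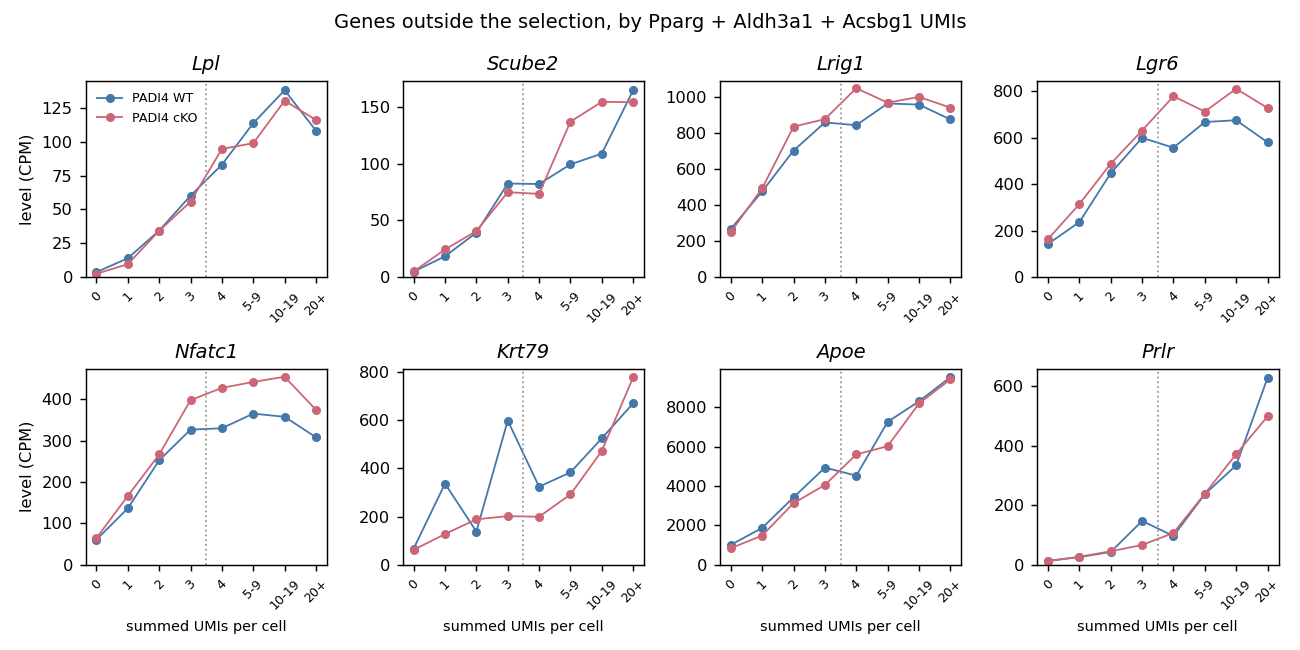
Level (CPM, linear axis from 0) of 8 genes not used in the choice in droplets grouped by their summed UMIs of Pparg, Aldh3a1 and Acsbg1, with 1 point per library and the dotted line at the lower limit of 4 UMIs. Apoe and Prlr are highest at sums of 20 and more, Lpl is highest at 10 to 19 and lower at 20 and more, while Lrig1, Lgr6 and Nfatc1 are near their plateau at a sum of 3, and Krt79 in PADI4 WT is uneven, with 599 CPM at a sum of 3 and 324 CPM at 4.

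When all filtered droplets were clustered without regard to the choice, the Pparg/Aldh3a1 cells did not form 1 cluster. Of 26 clusters, 5 held at least 5% of them each and 886 cells (91.2%) in all. Cluster 14, led by Chil1, Syn2 and Zfpm2 when set against all other droplets, held 235 cells (44.8%) in PADI4 WT and 199 (44.5%) in PADI4 cKO, and 69.9% and 65.2% of its own droplets were Pparg/Aldh3a1 cells. Cluster 15, led by Hapln2, Smoc1 and Unc5d, held 70 cells (13.4%, 10.6 to 16.6) and 86 cells (19.2%, 15.7 to 23.2). Cluster 6, led by Gm48893, Stfa1 and Gm47754, held 12.6% and 11.0%, and cluster 9, led by Hsd11b1, Lmo3 and Tgfb2, 10.9% and 10.5%.

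Cluster 10, led by Cemip, Tmem178 and Dab1, held 41 and 36 cells with medians of 28422 and 31512.5 UMIs, of which 92.7% and 97.2% were among the 6% of droplets with the highest scores for simulated doublets, and in cluster 20, with 25 and 10 cells, these shares were 88.0% and 100%. Over all Pparg/Aldh3a1 cells, 76 (14.5%) and 58 (13.0%) had such scores, whose part in the results is given as an alternative without them.

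**Figure D2:**
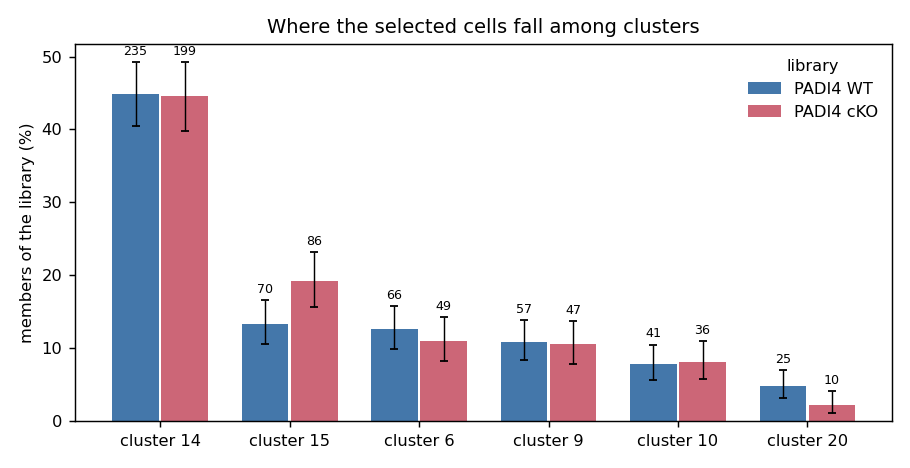
Share of each library's Pparg/Aldh3a1 cells (percent, bars from 0) in the 6 clusters that hold most of them, with exact 95% binomial intervals as error bars and the number of cells above each bar. Cluster 14 holds 44.8% and 44.5% in the 2 libraries, and the other clusters hold under 20% each.

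The clusters divided the cells by Aldh3a1 more than by Pparg. Pparg stood at 725 and 822 CPM in the Pparg/Aldh3a1 cells of cluster 14 and at 566 and 625 CPM in those of cluster 15. Aldh3a1 stood at 282 and 274 CPM in cluster 14, 74.6 and 66.2 CPM in cluster 6, 33.5 and 26.1 CPM in cluster 9, and 13.6 and 22.4 CPM in cluster 15. Ahr, the receptor through which cells sense aromatic compounds, had the same order in the 2 extremes, with 190 and 168 CPM in cluster 14 and 17.3 and 25.2 CPM in cluster 15.

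Scube2 was likewise at 222 and 224 CPM in cluster 14 and at 2.47 and 23.4 CPM in cluster 15, and Prlr at 625 and 655 CPM against 162 and 216 CPM. Cells of cluster 15 instead had more Krt17, a keratin of the outer root sheath and upper follicle (4212 and 4155 CPM against 1378 and 1665 CPM in cluster 14), more Nfatc1, a transcription factor of quiescent follicle stem cells (669 and 722 CPM against 319 and 344 CPM), and more Tgfb2, a growth factor (950 and 1312 CPM against 164 and 313 CPM). Zfpm2, a partner of GATA factors, was shared by clusters 14 (157 and 362 CPM) and 15 (163 and 295 CPM) and stood at 1.07 and 17.9 CPM in cluster 6. Since clusters are made from these levels, the contrast is a description of the cells and not a test.

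Against all other filtered droplets, 412 of 9891 genes with at least 100 UMIs in the Pparg/Aldh3a1 cells were at least 2-fold higher in both libraries (4.17%), and 386 of 9878 genes that would have reached 100 UMIs at the level of the others were at least 2-fold lower (3.91%). The median log2 ratio over the genes tested was -0.05 in PADI4 WT and -0.01 in PADI4 cKO. Both shares are over genes in the very cells that the choice defined, and no test goes with them.

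Ranked by the smaller of the 2 libraries' ratios, the highest gene was Syn2, which encodes the synaptic vesicle protein synapsin II. It had 277 and 334 UMIs, 34.9 and 49.0 CPM against 1.43 and 2.01 CPM, and a log2 ratio of 4.61 (4.33 to 4.89) in PADI4 WT and 4.61 (4.37 to 4.85) in PADI4 cKO. Bcan, the proteoglycan brevican of brain matrix, followed with log2 ratios of 5.21 and 4.57, Timp4, an inhibitor of metalloproteinases, with 4.32 and 4.18, and Zfpm2 with 4.16 and 4.62. Timp4 lies inside Syn2 on the opposite strand, and Gm44079 (4.58 and 4.37) inside Pparg, and as the sources used here do not state whether counting used strand, their counts are uncertain. Sema3a, a secreted cue that guides nerve fibers, was at 349 and 507 CPM against 24.0 and 25.1 CPM in 77.9% and 83.9% of the cells.

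Hsd17b2, which inactivates estradiol and testosterone, had log2 ratios of 4.12 and 4.02, and Adh1, an alcohol dehydrogenase that also oxidises retinol, 3.50 and 3.83. Parm1, first known as an androgen-regulated gene of the prostate, was found in 77.3% and 81.9% of the cells against 12.1% and 10.8% of the others (log2 3.53 and 3.78). Tox3, a nuclear protein of the HMG-box family, was found in 63.9% and 64.0% against 8.22% and 8.11% (log2 3.49 and 3.79). Kank4, Adarb2, E030044B06Rik, Trpc4, Orm1, Acyp2, Gm12068 and Lgi3 completed the 20 highest, with log2 ratios between 3.48 and 5.19 in either library.

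Lowest against the other droplets was Acta2. It encodes the actin of contractile cells and had 20 and 7 UMIs, or 2.52 and 1.03 CPM against 28.8 and 21.0 CPM (log2 -3.48 and -4.26). Hhip, which binds and restrains hedgehog ligands, had 6 and 9 UMIs (log2 -3.13 and -3.03). The homeobox genes Dlx1, Dlx2 and Msx2, which pattern the hair matrix, had log2 ratios of -2.63 and -3.47, -2.37 and -2.55, and -2.37 and -2.36, and Msx2 was found in 10.3% and 11.2% of the cells against 40.8% and 45.9% of the others. Pdpn, Sox5os2, Ccdc92, Tnf and Scrg1 made up the rest of the 10 lowest.

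**Figure D3:**
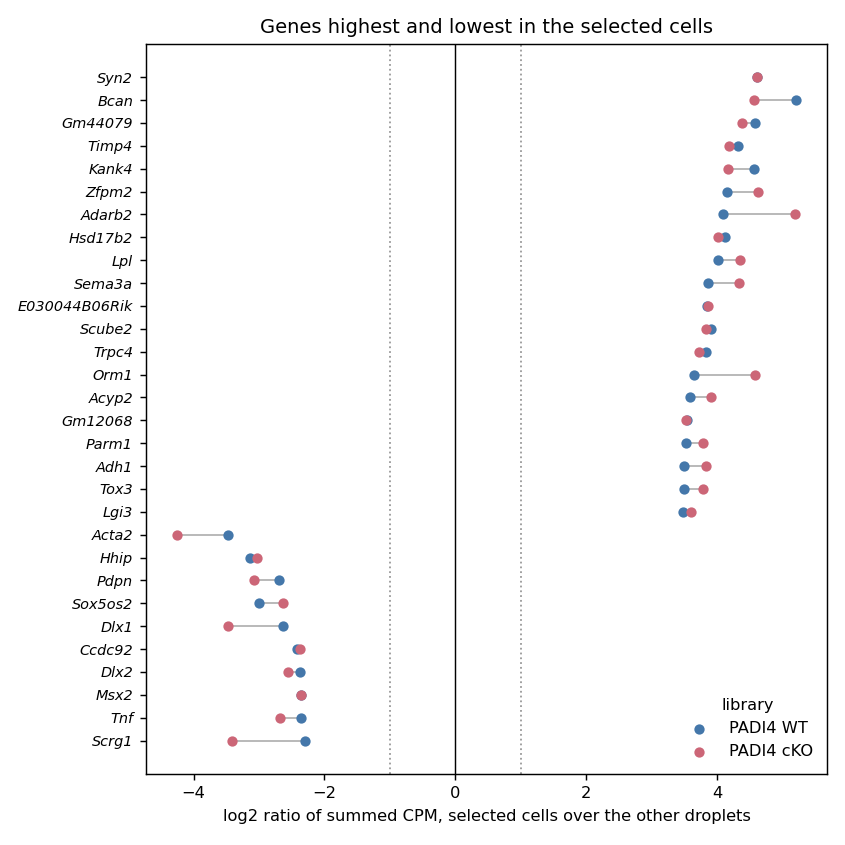
Log2 ratio of summed CPM of the Pparg/Aldh3a1 cells over all other filtered droplets for the 20 genes highest and the 10 lowest in both libraries, ranked by the smaller of the 2 sizes, with 1 point per library and dotted lines at 2-fold. Every gene lies on the same side in both libraries, Syn2 at 4.61 in each and Acta2 at -3.48 and -4.26.

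Of the promoter windows of these genes, 15 for 14 of the 20 highest were in the RefSeq table, and 0 held AGGTCA, 0 the spaced repeat and 5 (33.3%) GCGTG, against 16.3%, 0.0396% and 32.4% of all windows. Of 8 windows for 8 of the 10 lowest, 2 held AGGTCA and 2 GCGTG. Windows of Scube2 and Acsbg1 each held 1 GCGTG and no AGGTCA, and Aldh3a1 and Lpl were not matched.

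Counts of higher and lower genes in this and the following lists stand beside 4.17% and 3.91% of all genes tested. The lists are short, and whether any of them exceeds these shares was not tested. Among transcription factors and cofactors of the sebaceous gland, 22 of the 25 listed had enough UMIs, and 5 were at least 2-fold higher and 0 lower, with a list median of 0.36 and 0.43 on the log2 scale. Gata6, a GATA factor of the sebaceous duct and upper follicle, had 335 and 356 UMIs and stood at 42.2 and 52.2 CPM against 4.43 and 5.29 CPM (log2 3.25 and 3.30). Ppara, the PPAR that governs fatty acid oxidation, stood at 38.3 and 38.4 CPM against 7.53 and 6.40 CPM. Cebpa and Cebpb, which act with PPARγ in fat cells, had log2 ratios of 1.42 and 1.62, and 1.36 and 1.58, and Smarca2, a chromatin remodeler, 1.25 and 1.37. Rxra, the partner that PPARγ binds DNA with, was at 84.8 and 85.0 CPM against 60.1 and 62.4 CPM, under 2-fold apart.

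Most genes of the mature sebocyte had few UMIs. The choice left out droplets with at least 2 Cidea UMIs, in which Far2, for example, stood at 460 and 363 CPM. Low levels of such genes are thus in part set by the choice. Of the 17 listed, 5 reached 100 UMIs in the cells, and of these Plin2, the general coat protein of lipid droplets (102 and 102 CPM against 25.6 and 23.1 CPM), and Krt79, a keratin of the duct and upper follicle (491 and 482 CPM against 127 and 105 CPM), were higher. Fabp5, a fatty acid carrier abundant in epidermis and sebocytes, was lower, at 190 and 171 CPM against 761 and 645 CPM. Awat2, the enzyme that joins fatty alcohols into wax esters, had 50 and 47 UMIs (6.30 and 6.89 CPM against 3.75 and 3.92 CPM). Elovl3, an elongase of very long fatty acids, had 15 and 13 UMIs, Mc5r, the melanocortin receptor of sebocytes, 3 and 6, Awat1 0 and 1, and Plin5 0 and 0.

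Apoe, the apolipoprotein through which cells exchange lipid, was at 7783 and 7639 CPM against 1331 and 1174 CPM (log2 2.55 and 2.70) and in 99.8% of the cells of either library. Slc27a1, a transporter of fatty acids, had log2 ratios of 1.65 and 1.75. With Lpl, these were the 3 higher genes of 13 tested for lipid uptake, binding and lipolysis, and Fabp5 was the single lower gene, while Cd36, another fatty acid transporter, had 4 and 3 UMIs.

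Of 22 genes of fatty acid synthesis, activation, elongation and desaturation, Acsl1 and Acsl4, which activate fatty acids, were higher (log2 1.13 and 1.40, and 1.64 and 1.78), and Scd2 (-1.54 and -1.56) and Fads1 (-1.27 and -1.04), which desaturate them, were lower. Fasn, the fatty acid synthase, stood at 19.4 and 22.4 CPM against 29.7 and 29.2 CPM, within 2-fold. Cholesterol synthesis had a list median of -0.92 and -0.52, with 0 of 20 genes higher and Mvd, Fdps and Dhcr7 of 21 lower. In fatty acid oxidation and peroxisomes, 3 of 33 genes were higher, Acadl and Cat among them, and 0 lower, beside 4.17% and 3.91% of all genes. Gpat3, which starts glycerolipid synthesis, and Plin2 were the 2 higher of 15 triglyceride, wax and droplet genes.

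Aldh3a1 was not joined by its whole family. Of 10 other aldehyde dehydrogenase genes tested, Aldh3a2, which clears long fatty aldehydes, was higher (33.4 and 31.5 CPM against 14.1 and 14.3 CPM), as was Aldh6a1, which acts in valine breakdown (log2 1.41 and 1.30), and 0 were lower. Aldh2 was at 124 and 117 CPM against 116 and 108 CPM. Ahr stood at 118 and 101 CPM against 20.0 and 12.1 CPM (log2 2.56 and 3.06), and its target Cyp1b1, a cytochrome P450, at 8.32 and 8.80 CPM against 3.20 and 1.72 CPM. With the glutathione transferase Mgst2, these were the 3 higher of 25 xenobiotic and redox genes, with 0 lower, beside 4.17% and 3.91% of all genes. Cyp1a1, the best known Ahr target, had 17 and 6 UMIs in 0.382% and 0.224% of the cells.

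Hsd11b1, which regenerates active glucocorticoid, stood at 20.7 and 10.6 CPM against 1.37 and 1.06 CPM (log2 3.92 and 3.32), and it and Hsd17b2 were the 2 higher of 5 genes tested for androgen and steroid handling. Of the 6 retinoid genes tested for higher levels, 0 were higher, and Rarb, a retinoic acid receptor, was lower (log2 -1.42 in both).

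The cells had the keratins and stem cell markers of the upper follicle. Of 10 such genes tested, 6 were higher and 0 lower, with a median of 1.35 and 1.52. Lrig1 was found in 99.2% and 99.5% of the cells (925 and 977 CPM against 302 and 291 CPM), and Lgr6, a receptor of stem cells above the bulge, in 92.0% and 94.8% (632 and 750 CPM against 160 and 187 CPM). Plet1, a surface protein of the junctional zone, had log2 ratios of 1.27 and 1.52, and Sostdc1, a secreted inhibitor of BMP and Wnt signals, 1.43 and 1.52. The basal keratins Krt14 and Krt5 were within or near 2-fold of the other droplets (log2 0.77 and 1.20, and 0.24 and 0.40), and Itga6, the integrin of the basal layer, was the single higher one of 14 basal genes. Of the epidermal differentiation genes, Krtdap was higher and Dsg1a and Ovol1 lower.

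In the hedgehog pathway the membrane co-receptors and the ligand side parted. Boc, Cdon and Gas1, which help cells bind the ligand, were the 3 higher of 13 genes (log2 1.29 and 1.50, 1.48 and 1.62, and 1.20 and 1.92). Shh, the ligand of the hair matrix, stood at 11.5 and 15.7 CPM against 56.5 and 65.2 CPM, and it, Scube1, Scube3, Ptch1 and Hhip were among the 6 lower of 15, Ptch1 and Hhip being targets of the pathway. Gli1, another target, was at 20.6 and 26.2 CPM against 39.2 and 49.5 CPM (log2 -0.93 and -0.91). Wnt response genes had 0 higher of 12 and 7 lower of 16, with Lef1, which carries the Wnt signal to DNA, at 113 and 96.5 CPM against 456 and 467 CPM (log2 -2.01 and -2.27), and Lgr5 at log2 -1.29 and -1.65.

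Markers of other follicle compartments and of cells outside the epithelium bear on the label. Of the matrix and lower proximal cup markers 9 of 10 were lower, of the inner root sheath 4 of 7 (Krt25, Krt27, Krt28 and Krt73) and of the hair shaft 4 of 4 tested. The outer root sheath list was mixed, with Krt15 and Nfatc1 higher (log2 1.18 and 1.20, and 2.22 and 2.39) and Tbx1, Lhx2 and Adamts19 lower. All 8 adipocyte markers together had 3 and 4 UMIs in the 524 and 447 cells, the 7 immune markers 3 and 4, the 5 endothelial markers 6 and 9, the 4 smooth muscle markers 7 and 6, and the 5 erythroid markers 29 and 41. Of the fibroblast list, Postn, which upper follicle keratinocytes can also express, was higher (log2 1.05 and 1.44) and Col1a2 and Col3a1 lower, of the melanocyte list Dct and Pmel were lower, and of the Schwann list Mbp was higher. Adipoq, which defines fat cells, had 1 and 2 UMIs, and Ptprc, which defines blood cells, had none.

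The cells were next set beside 3 groups of droplets with related markers. A Cidea gate held 284 further droplets (115 and 169) with at least 2 UMIs of Cidea under the same limit on Krt1 and Krt10. A Krt79 gate held 648 (386 and 262) with at least 4 UMIs of Krt79, and a Plet1/Gata6 gate 249 (119 and 130) with at least 4 UMIs of these 2 genes, each without the cells already placed. The Plet1/Gata6 gate thus lacked droplets rich in Krt79 (12.8 and 12.6 CPM, against 127 and 105 CPM in all droplets outside the choice). Its median depth was 18699 and 23602 UMIs, and its Mki67 stood at 652 and 462 CPM against 499 and 415 CPM. It may not stand for the junctional zone as a whole.

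Against the Cidea gate, 219 of 9885 genes were at least 2-fold higher in the Pparg/Aldh3a1 cells in both libraries (2.22%) and 216 of 6628 lower (3.26%). As the limit on Cidea parts the 2 groups, lower levels of genes that go with Cidea describe that cut and are no test. Far2, which makes fatty alcohols, stood at 5.42 and 7.92 CPM against 460 and 363 CPM, Soat1, which esterifies cholesterol, at 20.3 and 19.9 CPM against 822 and 524 CPM, and Scd1, the main desaturase of sebocytes, at 8.44 and 9.82 CPM against 425 and 167 CPM. Fa2h, Acer1, Cyp2g1, Hsd3b6 and Cd36 were among the 10 with the largest differences. Fabp5 was lower by log2 -4.06 and -3.64, and Krt79 by -1.81 and -1.81.

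Lpl (log2 0.09 and 0.52) and Gata6 (0.09 and -0.04) were within 2-fold of the Cidea gate, with intervals for Gata6 of -0.27 to 0.48 and -0.32 to 0.25. Higher in the Pparg/Aldh3a1 cells were Cacna1e, a calcium channel subunit (log2 3.94 and 3.12), Has2, which makes hyaluronan (2.65 and 2.41), and Lgr6 (1.68 and 1.14). Cacna1e and Has2 were low in the gate, with wide intervals (2.38 to 7.32 and 2.24 to 4.34, and 1.05 to 6.03 and 1.14 to 4.49). Cacna1e was also among the leading genes of cluster 15 (36.7-fold over all other droplets), which held 13.4% and 19.2% of the Pparg/Aldh3a1 cells. Mki67, a protein of dividing cells, was at 270 and 150 CPM against 136 and 50.3 CPM. Scube2 differed from the gate by log2 1.50 in PADI4 WT and 0.18 in PADI4 cKO.

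The Krt79 and Plet1/Gata6 gates were filled after the Pparg/Aldh3a1 cells and the Cidea gate had been taken out. Genes that go with the rule genes or Cidea, such as Prlr, Soat1 and Lpl, are thus lower in these gates partly by that order. Their differences are a description and no test. Against the Krt79 gate, 215 of 9884 genes were higher (2.18%) and 309 of 9287 lower (3.33%). Higher were Sox11, a transcription factor (17.4 and 20.5 CPM against 0.150 and 0.223 CPM), Syn2, Timp4 and Soat1 (log2 3.70 and 3.58), and Lpl (1.92 and 2.44). Sox11 was barely detected in the gate, and the intervals of its log2 ratio ran from 4.36 to 12.2 and from 4.02 to 11.8. Lower were Calm4, a calcium-binding protein of differentiating keratinocytes (22.3 and 5.72 CPM against 271 and 353 CPM), and the keratins Krt6a and Krt16. Against the Plet1/Gata6 gate, 305 of 9882 genes were higher (3.09%) and 336 of 7562 lower (4.44%). Prlr stood at 346 and 344 CPM against 19.6 and 11.0 CPM, Sdr16c6, a dehydrogenase, at 81.3 and 85.2 CPM against 1.20 and 0.306 CPM, and Lpl at log2 3.45 and 3.80 above the gate. Sdr16c6 was barely detected in this gate, with log2 intervals of 4.53 to 8.36 and 5.64 to 13.4. Igfbp7 and Col14a1 were lower (log2 -2.84 and -2.86, and -2.81 and -2.94), as was Mki67 (-1.27 and -1.62).

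**Figure D4:**
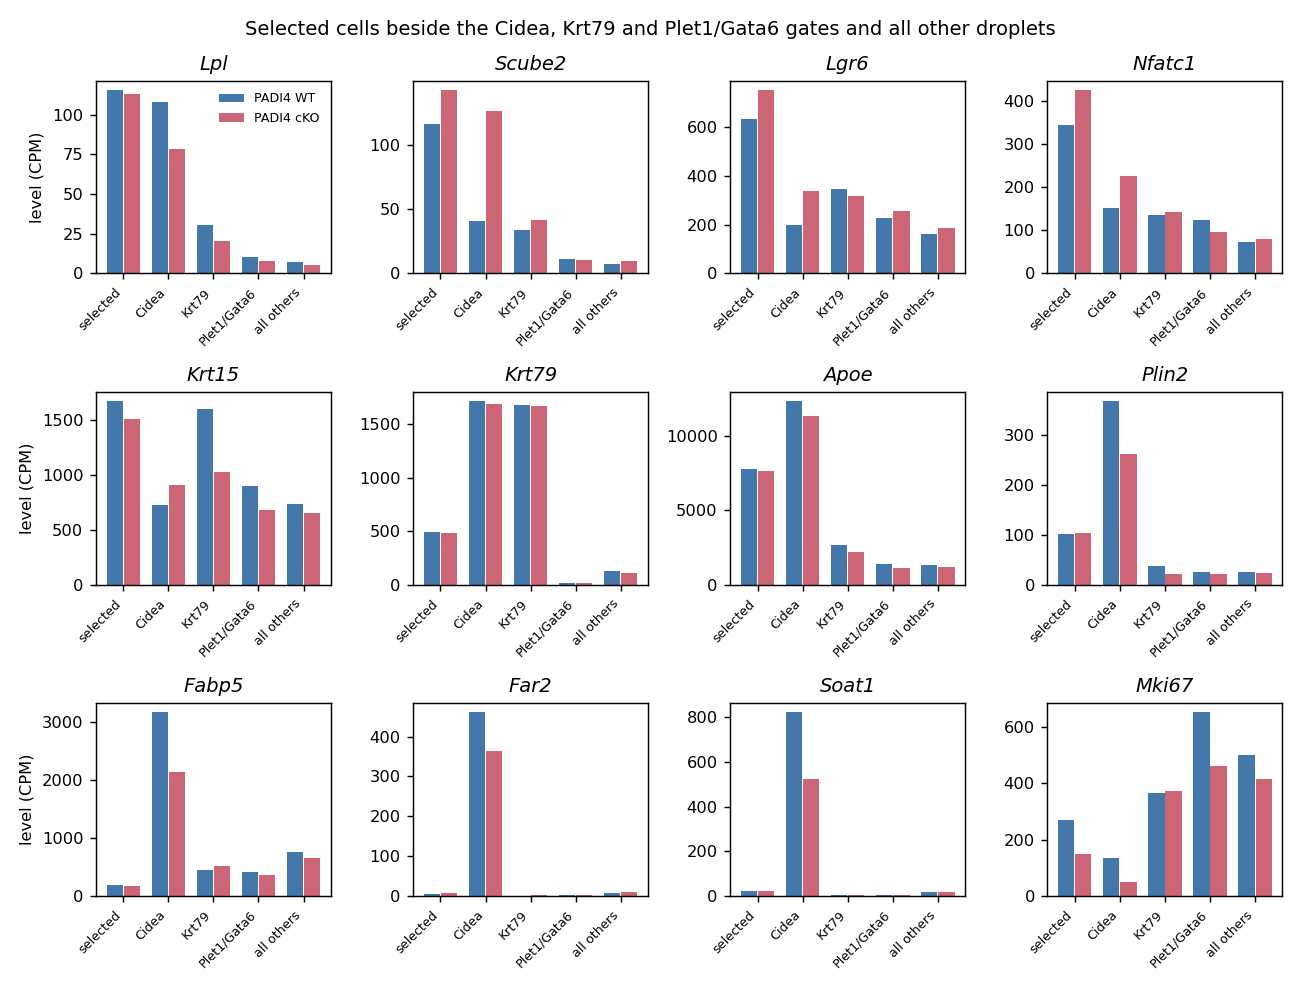
Level (CPM, bars from 0) of 12 genes in the Pparg/Aldh3a1 cells (labelled selected), the Cidea, Krt79 and Plet1/Gata6 gates, and all other filtered droplets, the gates included, with 1 bar per library and no error bar since each bar is 1 sum. Lpl is at 115 and 113 CPM in the selected cells and 108 and 78.4 CPM in the Cidea gate, while Fabp5, Far2 and Soat1 are far higher in the Cidea gate.

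The comparison of the library labelled PADI4 cKO with PADI4 WT sets the cells side by side by their genotype labels, Padi4 being the gene of an enzyme that turns arginine into citrulline, with 3 UMIs in the cells of each library, too few to show a loss or its absence. Of 9896 genes with at least 100 UMIs over both libraries, 209 had a log2 ratio above 0.5 (2.11%) and 278 below -0.5 (2.81%), with a median of 0.02 over all. In the cells with Xist UMIs alone, 98 and 447 in number, 541 of 8425 genes were above 0.5 (6.42%) and 260 below -0.5 (3.09%), and of 149 and 121 genes past the limit in all cells that were also measured there, 73 and 65 were past it on the same side. In these cells 8 matrix and lower proximal cup markers and 4 inner root sheath markers were above 0.5 (list medians 0.76 and 1.03), against 0 and 2 in all cells, and the part of such markers in the result was not tested. The genes of the choice were under the limit, Pparg with 0.25, Aldh3a1 with -0.06 and Acsbg1 with -0.17, as were Lpl with -0.03 (-0.17 to 0.11) and Scube2 with 0.29 (0.16 to 0.42).

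Several of the most different genes differed alike in the other droplets. Gm10260 (log2 3.34) had 16.9 and 172 CPM here and 14.5 and 173 CPM in the other droplets, and Hmga1b, Gm21887, Gm47283 and Gm11361 differed as much there. These are predicted genes or near-identical copies among which reads can be split, so their counts are uncertain, as are those of Gm8797, Stfa1, Stfa3 and Cstdc5 among the lowest. In the other droplets Gm8797 (65.0 and 9.30 CPM), Stfa3 (72.5 and 5.96), Cstdc5 (82.7 and 6.93), Stfa1 (27.6 and 2.42) and H19 (30.9 and 10.5) were also lower in PADI4 cKO. Krt75, Rap1gap2, Tm4sf1, Calm4 and Grik3 differed less there than in the Pparg/Aldh3a1 cells. Cluster 6, with Stfa1 among its leading genes, held 688 and 241 filtered droplets. Fosb, an immediate early gene, was at 137 and 322 CPM (log2 1.23, 1.12 to 1.33) and in the other droplets at 94.0 and 168 CPM. Zfpm2 was at 90.9 and 199 CPM (log2 1.13), but at 0.12 in the Xist-only cells. Fbn2 (2.01), an elastic fiber protein, and Gm26802 (1.89) rested on 26 and 30 UMIs in PADI4 WT.

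Of the lowest genes, Krt75, the keratin of the companion layer, had 476 and 21 UMIs (log2 -4.25), with 96.0% of the PADI4 WT UMIs in 5 cells. In the Xist-only cells it had 2 and 21 UMIs, with the opposite sign (log2 0.67, -1.07 to 4.10). In Tm4sf1 (log2 -2.84) this share was 85.2% and in Rap1gap2 (-3.24) 76.9%. Of the UMIs of H19, Stfa3, Grik3, Cstdc5 and Calm4 in PADI4 WT, 67.3%, 58.4%, 56.8%, 56.1% and 46.9% were in 5 cells. Calm4, H19 and Grik3 were also below the limit, with log2 ratios of -1.95, -1.80 and -1.76 in all cells, and in the Xist-only cells of 0.17, 0.01 and -0.11.

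The genes of G2 and mitosis, the phases in which a cell prepares and carries out division, differed together. In the Pparg/Aldh3a1 cells 16 of 20 were below -0.5, beside 2.81% of all genes, with a median of -0.67. The summed level of the list was 1801 CPM in PADI4 WT and 1124 CPM in PADI4 cKO. Mki67 stood at 270 and 150 CPM (log2 -0.84, -0.95 to -0.73). In the other droplets the summed level was 3160 and 2786 CPM. After thinning to 2000 UMIs, 27.1% and 20.8% of the Pparg/Aldh3a1 cells had at least 2 UMIs of the list, against 51.6% and 46.7% of the others.

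In the Xist-only cells the median of the list was -0.64. Of 20 S phase genes, which copy the DNA, 1 was above 0.5 (Mcm2, 0.56) and 0 below, beside 2.11% and 2.81% of all genes. Their median was 0.24 and their summed level 1517 and 1732 CPM. Compared with the other droplets of their library, 0 of the 20 genes of either phase were 2-fold lower in both libraries, beside 3.91% of all genes. List medians were -0.82 and -1.30 for G2 and mitosis and -0.41 and -0.30 for S phase. Without the 6% of droplets with the highest doublet scores, 12 of the G2 and mitosis genes were 2-fold lower, among 533 lower genes in all. Proliferation also varied between clusters. The Pparg/Aldh3a1 cells of cluster 14 had 2281 and 1483 CPM of the G2 and mitosis genes and those of cluster 15 had 818 and 215 CPM, and cluster 15 held 13.4% of the PADI4 WT cells and 19.2% of the PADI4 cKO cells. Within cluster 14 alone, 14 of the 20 G2 and mitosis genes were below -0.5, among 210 such genes in all.

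**Figure D5:**
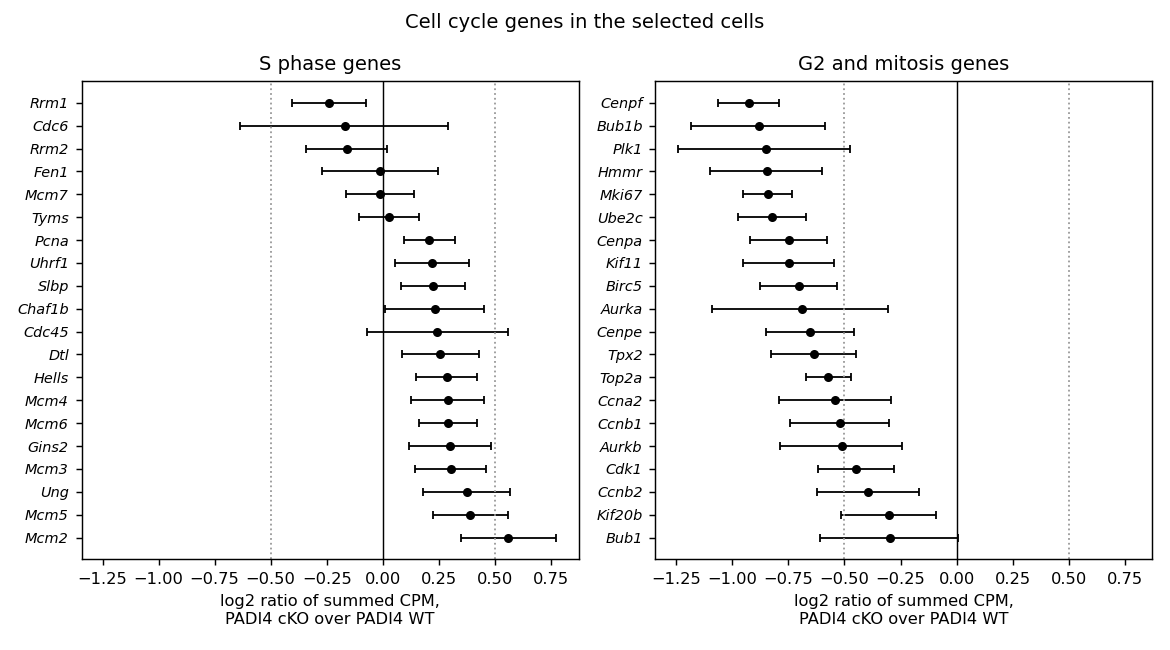
Log2 ratio of summed CPM in the Pparg/Aldh3a1 cells, PADI4 cKO over PADI4 WT, for 20 S phase and 20 G2 and mitosis genes, with exact 95% counting intervals as bars and dotted lines at 0.5 and -0.5. All 20 G2 and mitosis genes lie below 0, 16 of them past -0.5, while 1 S phase gene lies past 0.5. Over all genes tested, 2.81% lie below -0.5 and 2.11% above 0.5.

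Of 20 cholesterol synthesis genes, Acat2, Nsdhl and Sc5d were above 0.5 and 0 below, beside 2.11% and 2.81% of all genes, with a median of 0.24 in all cells and -0.023 in the Xist-only cells. The count above 0.5 depended on the settings: it was 1 with ratios centered on the median gene or without mitochondrial and ribosomal protein genes, 0 with the limit at 4 per 10000 UMIs or with thinned cells, and 6 without doublet-scored droplets or in cluster 14 alone. Of 22 genes of fatty acid synthesis 0 passed the limit in either direction, and of 5 genes of the mature sebocyte 0, beside the same 2.11% and 2.81% of all genes, while Hsd11b1 was lower (-0.96, -1.39 to -0.56).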

How the data were processed

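The submitters' notes name Cell Ranger and Scanpy and the build mm10, and the authors deposited raw UMI counts per gene and barcode (Cell Ranger 7.1.0 by the header), unfiltered and unnormalized. CellBender, which the study ran, was not run here, and whether introns or strand were counted is not given in the sources used here. The single 3′ library of each genotype was filtered to 2000 to 60000 UMIs, 1000 to 8000 genes and at most 20% mitochondrial UMIs, without the ribosomal and hemoglobin limits of the study. No column was left without a sample (0). Levels are summed UMIs per 1000000. Log2 ratios add 0.5 UMI to each sum, with exact conditional binomial 95% intervals, and shares have Clopper-Pearson intervals. A gene counted as higher or lower at 2-fold in both libraries and at least 100 UMIs, and between libraries at 0.5 on the log2 scale. A limit of 3 UMIs was set as the floor for folds. Free RNA was estimated from barcodes with fewer than 100 UMIs.

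Clusters came from 1000 variable genes, 50 principal components, 15 neighbors and Leiden at resolution 1.0. Doublets were scored against 2 simulated doublets per cell with no threshold of their own, kept, and the highest 6% left out as an alternative. Named genes are the rule genes, all genes of 34 lists, the 20 highest and 10 lowest against the other droplets, the 10 highest and 10 lowest between libraries by the interval bound nearest 0, Padi4 and sex-linked genes, and the 3 leading genes of clusters with at least 5% of the cells. Prlr, Sox11, Dnaja4 and genes named against the gates were chosen after their values were seen. The members and lists were chosen with earlier results of these data known. Of 32285 genes, 32158 were placed on GRCm38, and promoters came from RefSeq. Some genes that the rule names are not reported here. Scripts were tested on simulated data. Alternatives changed the limits, the rule genes, doublets, sex, depth, clustering and scaling, and the restriction to cluster 14 was chosen after seeing the data. Tools were Python 3.11.15, numpy 2.4.6, scipy 1.17.1, pandas 2.3.3, scikit-learn 1.9.0, igraph 0.11.9, leidenalg 0.10.2 and matplotlib 3.10.9.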

Additional observations from a re-analysis of the deposited data

How the results depend on the processing

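No paired analysis was possible because each genotype has 1 library, and for the same reason no library could be left out. The share of Pparg/Aldh3a1 cells in PADI4 WT and PADI4 cKO moved from 6.05% and 5.74% to 7.22% and 6.83% at a sum of 3, 4.58% and 4.61% at a sum of 6, 5.26% and 5.18% at 4 per 10000 UMIs, 5.09% and 4.70% with Cidea at 0, and 3.49% and 2.95%, 5.44% and 5.20%, and 4.96% and 5.08% without Pparg, Aldh3a1 and Acsbg1 in the sum. In PADI4 WT it was 5.52% without doublet-scored droplets and 4.26% in Xist-only cells.

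Against the other droplets, the counts of higher and lower genes (412 and 386) became 218 and 180 at a minimum of 500 UMIs and 168 and 164 in cells thinned to 2000 UMIs, where fewer genes were tested. Between the libraries (209 and 278) they became 390 and 451 at a minimum of 50 UMIs, 49 and 57 at 500, 541 and 260 in Xist-only cells, and 146 and 85 with thinning. The main excess of lower genes turned round in the last 2, at a sum of 6 (243 and 217) and in cluster 14 alone (260 and 210). CPM without mitochondrial and ribosomal protein genes gave 171 higher and 320 lower genes between the libraries, and centering on the median gene 188 and 304. Without doublet-scored droplets, 390 of the 412 and 349 of the 386 genes were again called, and in cluster 14 alone 281 and 247. Between the libraries, 135 of 209 and 162 of 278 were again called without doublet-scored droplets, and 58 and 70 in cluster 14 alone.

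The cluster with most of the cells held 60.3% and 58.4% at resolution 0.5 and 59.9% and 57.0% with 30 neighbors. With full counts, Pparg was found in 60.4% and 59.6% of droplets with Aldh3a1, Aldh3a1 in 41.3% and 38.4% and Acsbg1 in 66.2% and 67.1% of those with Pparg, and Acsbg1 in 60.4% and 57.8% of those with Aldh3a1. Of 395 alternative values for the 30 named genes against the other droplets, 0 changed sign. Of 199 for the 20 named between the libraries 1 did, Cstdc5, at 0.051 in Xist-only cells. Both sets were picked from the same data for their large differences, so the few changes of sign are no check of them. Without a change of sign, 74 of the 395 values and 27 of the 199 lay outside the counting interval of the main value. These counts take in a gene only where it reached the minimum of UMIs, and below it Krt75, Calm4 and H19 also had values above 0 in Xist-only cells. The causes were not tested.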

Other observations

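Genes next to the rule genes were read as well. Within 500 kb of Pparg, 3 of 13 genes tested were at least 2-fold higher in the Pparg/Aldh3a1 cells in both libraries: Syn2, 78.9 kb away, Timp4, 108.7 kb away, and Gm44079, which overlaps Pparg. Syn2 was also the highest of all genes tested when ranked by the smaller of the 2 libraries' ratios. Within 500 kb of Aldh3a1 it was 1 of 14, Aldh3a2, whose nearest end lies 5.0 kb away, and within 500 kb of Acsbg1 1 of 8, Dnaja4, a chaperone (log2 1.38 and 1.81). Over all genes tested the share was 4.17%, and neighbors share no test here. Pparg was used for the choice, Gm44079 overlaps it and Timp4 lies inside Syn2, so the 3 genes near Pparg may not be 3 separate signals.

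The other Padi genes were at the edge of detection in these cells. Padi3, which acts on hair proteins, was found in 1.15% (0.421 to 2.48) and 1.57% (0.632 to 3.20) of the Pparg/Aldh3a1 cells, against 5.47% (4.98 to 5.99) and 4.47% (4.00 to 4.96) of the other droplets. Padi1 was found in 0.954% and 0.447% of the cells and Padi4 in 0.382% and 0.671%. Padi2 was found in 0 of 524 and 0 of 447 cells, which allows shares of cells with a Padi2 UMI of up to 0.573% and 0.671% (3 cells of the total), a limit on detection and not on expression.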
